A study of Mus musculus with 7 samples.

Results

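In mouse myotubes 833 MyoD peaks had only genes below 0.5 FPKM in reach, called silent genes here. These regions were taken from 1 list of MyoD peaks, made by chromatin immunoprecipitation and sequencing (ChIP-seq) of myotubes after 2 days of differentiation. A peak was kept where its summit lay on chromosomes 1 to 19, inside or within 10 kb of a gene locus, and where every gene in that reach had less than 0.5 FPKM in myotubes and in myoblasts. FPKM scales the RNA fragments counted for a gene to its transcript length and to the library. The 833 peaks were 7.84% of the 10620 peaks on chromosomes 1 to 19 (exact 95% interval 7.34 to 8.37). The list held 10756 peaks in all, the other 136 on chromosome X. Of the remaining autosomal peaks, 7369 had a gene at 0.5 FPKM or more in reach, called peaks at expressed genes here, and 2418 had no gene in reach.

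The cells were primary myoblasts, the progeny of satellite cells that were sorted by flow cytometry from mice aged 4 to 6 weeks. Myotubes were made from confluent myoblasts by 48 h in differentiation medium with 5% horse serum. RNA came from myotubes and from growing myoblasts that both carried a retroviral empty vector, with 1 sample of each; for the MyoD sample no vector is named in the labels. The series held 7 samples with 1 in each group, and its 4 histone samples were left aside. Strain and sex of the mice are not stated in the labels used here. The labels' protocol speaks of sequencing in duplicates, while the files hold 1 peak list and 1 FPKM value per condition. Genes that define the labelled cells were present. Myog, the factor of terminal muscle differentiation, had 1207 FPKM in myotubes and 130 FPKM in myoblasts. Ckm, the muscle creatine kinase, had 1453 FPKM in myotubes and 49.4 FPKM in myoblasts. The peak list came from 8637045 ChIP tags, of which 4049890 were unique, against 9129012 control tags.

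MyoD is a basic helix-loop-helix factor that pairs with E proteins and binds the E-box, a short palindromic DNA motif. In muscle cells it is known to bind many more places than there are genes it switches on. E-boxes with a GC or GG core are the forms MyoD is known to prefer.

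Promoters of silent genes that held a MyoD peak at the gene start show the sequence such a peak sits beside. Of 863 gene symbols in reach of these peaks, 418 had a promoter in RefSeq (build GRCm38.p6), and 42 peaks lay within 1 kb of the start of 41 such genes. In 18 of them the summit was upstream of the start, and in 24 it was at or after it. For these distances the start is the 5′ end of the merged locus. Where several genes share a locus, that end need not be the gene's own start. The 6 shown are those with the highest peak fold enrichment among genes that share their locus with no other gene. Each line gives the 250 bases before the gene start, read 5′ to 3′ on the gene's own strand, with every E-box of the form CANNTG in capitals.
Npy2r: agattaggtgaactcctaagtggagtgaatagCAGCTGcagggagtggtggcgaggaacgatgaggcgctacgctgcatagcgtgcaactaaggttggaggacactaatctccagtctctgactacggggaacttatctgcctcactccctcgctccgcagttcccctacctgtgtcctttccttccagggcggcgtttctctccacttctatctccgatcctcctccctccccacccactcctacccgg
Zswim2: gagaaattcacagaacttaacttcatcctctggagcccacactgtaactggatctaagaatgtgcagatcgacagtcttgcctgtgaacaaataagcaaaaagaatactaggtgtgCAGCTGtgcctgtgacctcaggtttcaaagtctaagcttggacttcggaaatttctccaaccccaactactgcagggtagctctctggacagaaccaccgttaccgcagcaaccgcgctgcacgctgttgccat
Nsg2: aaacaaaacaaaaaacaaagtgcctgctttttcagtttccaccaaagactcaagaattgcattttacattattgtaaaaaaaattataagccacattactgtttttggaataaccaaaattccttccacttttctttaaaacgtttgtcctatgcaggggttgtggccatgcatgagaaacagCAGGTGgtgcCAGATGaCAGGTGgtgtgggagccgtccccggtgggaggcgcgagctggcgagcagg
1700028I16Rik: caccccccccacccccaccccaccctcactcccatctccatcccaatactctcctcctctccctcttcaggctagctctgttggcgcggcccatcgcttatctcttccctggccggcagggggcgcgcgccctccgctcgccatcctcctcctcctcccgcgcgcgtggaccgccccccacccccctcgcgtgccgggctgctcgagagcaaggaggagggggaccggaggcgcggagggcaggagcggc
Fgf6: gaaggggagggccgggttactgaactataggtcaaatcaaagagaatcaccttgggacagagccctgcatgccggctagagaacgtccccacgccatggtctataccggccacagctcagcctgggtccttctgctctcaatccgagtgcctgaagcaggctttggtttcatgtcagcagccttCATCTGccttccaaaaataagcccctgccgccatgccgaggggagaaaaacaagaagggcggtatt
Il6: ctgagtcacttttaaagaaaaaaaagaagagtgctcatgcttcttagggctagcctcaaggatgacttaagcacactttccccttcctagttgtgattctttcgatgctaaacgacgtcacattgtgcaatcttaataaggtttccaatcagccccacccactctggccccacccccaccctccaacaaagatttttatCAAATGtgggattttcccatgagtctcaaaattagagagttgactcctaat
Npy2r, a receptor for neuropeptide Y, is on the minus strand (chr3:82548086-82548335) and has a CAGCTG box at -218 from the start. Zswim2, a ubiquitin ligase of the testis, is also on the minus strand (chr2:83941227-83941476), with a CAGCTG box at -134. Nsg2, a vesicle protein of neurons (chr11:32000169-32000418, plus strand), holds 3 boxes within a short stretch, CAGGTG at -67, CAGATG at -57 and CAGGTG at -50. In 1700028I16Rik (chr10:82811873-82812122, plus strand) the window has no E-box. Fgf6, a growth factor of the muscle lineage (chr6:127015292-127015541, plus strand), has CATCTG at -66, and the cytokine gene Il6 (chr5:30012864-30013113, plus strand) has CAAATG at -51.

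The peaks beside these promoters were small to moderate. The Npy2r peak had 9 tags and a fold enrichment of 41.0 over the caller's regional background, with its summit 81 bases after the start of the gene in the files' build, mm9. A further Npy2r peak lay at 901 bases, with 7 tags and a fold of 30.8. The Zswim2 summit was at 12 bases with 8 tags, and the Nsg2 summit at -1 with 17 tags. The summit of 1700028I16Rik lay at -136 with 11 tags, that of Fgf6 at 116 with 9 tags and that of Il6 at 160 with 17 tags. Npy2r, Zswim2 and Il6 were listed at 0 FPKM in both conditions.

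E-boxes of any core were about as frequent in these windows as in promoters at large. CANNTG, which reads the same on both strands in its fixed letters, was in 27 of the 41 windows (65.9%, exact 95% interval 49.4 to 79.9) and in 66.2% of 32851 RefSeq promoter windows of the same length. CAGCTG was in 10 of 41 (24.4%, 12.4 to 40.3), against 13.0% of all promoters. CAGGTG or its reverse complement CACCTG was in 8 of 41 (19.5%, 8.82 to 34.9), against 17.2% of all. The GC core form thus had a higher share at these starts, but its interval includes 13.0%. CAGCTG and CAGGTG windows are also counted under CANNTG. The 41 windows are 1 per gene, while the 32851 are all windows listed, where a gene can have more than 1. The windows end at the start, and 24 of the 42 summits lay at or after it, so the windows often do not hold the summit. The peaks' own sequences are in mm9 and were not read here.

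Among the genes in reach were 17 microRNA genes, beside 19 peaks, and 16 of them matched a mature sequence in RefSeq. They were 3.32% of the 512 miRNA symbols below 0.5 FPKM. Of all silent genes, 5.27% were in reach of a peak at silent genes. The sequences shown are miR-206, whose peak was the largest of all, its neighbour miR-133b, and the 3 pairs of miRNAs in reach that share a seed. Capitals mark the seed, bases 2 to 8.
miR-206-3p: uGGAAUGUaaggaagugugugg
miR-133b-3p: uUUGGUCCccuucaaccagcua
miR-181a-5p: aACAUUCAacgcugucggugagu
miR-181b-5p: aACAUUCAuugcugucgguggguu
miR-15a-5p: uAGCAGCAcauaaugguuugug
miR-16-5p: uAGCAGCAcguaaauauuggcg
miR-204-5p: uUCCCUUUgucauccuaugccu
miR-211-5p: uUCCCUUUgucauccuuugccu
miR-206 is a muscle miRNA with the seed GGAAUGU. miR-181a and miR-181b share ACAUUCA and had the same peak in reach, with 12 tags. miR-15a and miR-16, which share AGCAGCA and are encoded side by side, also had a peak in common, with 10 tags. miR-204 and miR-211 share UCCCUUU from different chromosomes: both lie within merged loci of ion channel genes, Mir204 with Trpm3 in 851 kb with 3 peaks in reach, of 8, 8 and 9 tags, and Mir211 with Trpm1 in 116 kb with 1 peak in reach, of 8 tags. Mir15a and Mir16-1 likewise share a locus of 62.8 kb with the long noncoding RNA Dleu2. Where a locus is shared, the reach is measured from the ends of that locus and not from the miRNA. The host genes had at most 0.168 FPKM, and the miRNA genes named here were listed at 0 FPKM in both conditions, except Mir133b with 264 FPKM in myotubes and 183 FPKM in myoblasts. Of the 589 miRNA genes tabulated, 513 were listed at 0 in both conditions. Polyadenylated RNA holds precursors and not the mature miRNA, so a 0 here gives no measure of the mature form. Most copies of U1, U4, U6 and 7SK, RNAs that every cell uses, were also listed at 0, so for small RNA genes silent means only that the table lists them below 0.5 FPKM.

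The genes that chose the peaks were mostly near 0. The FPKM values that follow were used by the rule and are given as a description. In reach of the 833 peaks were 975 silent genes in 715 loci, which were 5.27% of the 18507 silent genes on chromosomes 1 to 19. Of the 975, 591 were listed at 0 in both conditions, and for 352 peaks (42.3%) every gene in reach was at 0. The largest FPKM in reach had a median of 0.0406 over the peaks. In the authors' deposited table, 969 of these genes had no test, 6 are marked as having too few data and 0 were tested, so 0 were called, against 6.52% of all 15966 tested genes called higher in myotubes and 17.3% called lower. The rule selected on these same values, so nothing is read from that. In bulk RNA, fewer cells of a type and less RNA per cell cannot be told apart.

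At the edge of the rule, the highest FPKM inside belonged to Pdgfrb, a growth factor receptor of pericytes and fibroblasts, with 0.495 in myotubes and 0.492 in myoblasts. Next were 2 peaks in Lrrc4c, a synaptic adhesion protein, with 0.0338 FPKM in myotubes and 0.493 FPKM in myoblasts. Just outside lay a peak at Cpa5 with 0.375 FPKM in myotubes and 0.502 FPKM in myoblasts. Next outside were Gm8225, with 0.440 FPKM in myotubes and 0.504 FPKM in myoblasts, and Muc5ac, a mucin, with 0 FPKM in myotubes and 0.506 FPKM in myoblasts.

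Genes in reach were a broad mix. Of the 596 with a RefSeq biotype, 435 were protein coding and 115 were long noncoding RNAs. A protein-coding gene was in reach of 535 peaks, any small RNA gene was in reach of 188, and for 67 peaks small RNA genes, whose low values do not show silence in this RNA, were all there was. For 549 peaks there was 1 gene in reach. Silent genes in reach of a peak at silent genes had long loci, with a median of 42.2 kb, against 8.13 kb for all other silent genes. Those others include any silent gene whose only peaks also had an expressed gene in reach. Reach is the locus plus 10 kb on each side, so a longer locus by construction covers more sequence where a peak can fall. A locus in this table is a merged region that several genes can share.

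MyoD peaks at silent genes were smaller in tags than peaks at expressed genes and had a higher fold enrichment. Their tags ranged from 7 to 190 with a median of 11 (quartiles 8 to 17), against a median of 14 (10 to 23) at expressed genes and 13 (8 to 20) with no gene in reach. Their median fold enrichment was 16.8 (95% interval of the median 15.99 to 17.4), against 14.7 (14.5 to 14.99) at expressed genes and 16.5 (15.99 to 16.8) with no gene in reach. In both measures the peaks at silent genes were closer to the gene-free peaks than to those at expressed genes. All of these peaks come from 1 ChIP library and are not replicates, so the intervals cover counting error only and no test was made.

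**Figure D1:**
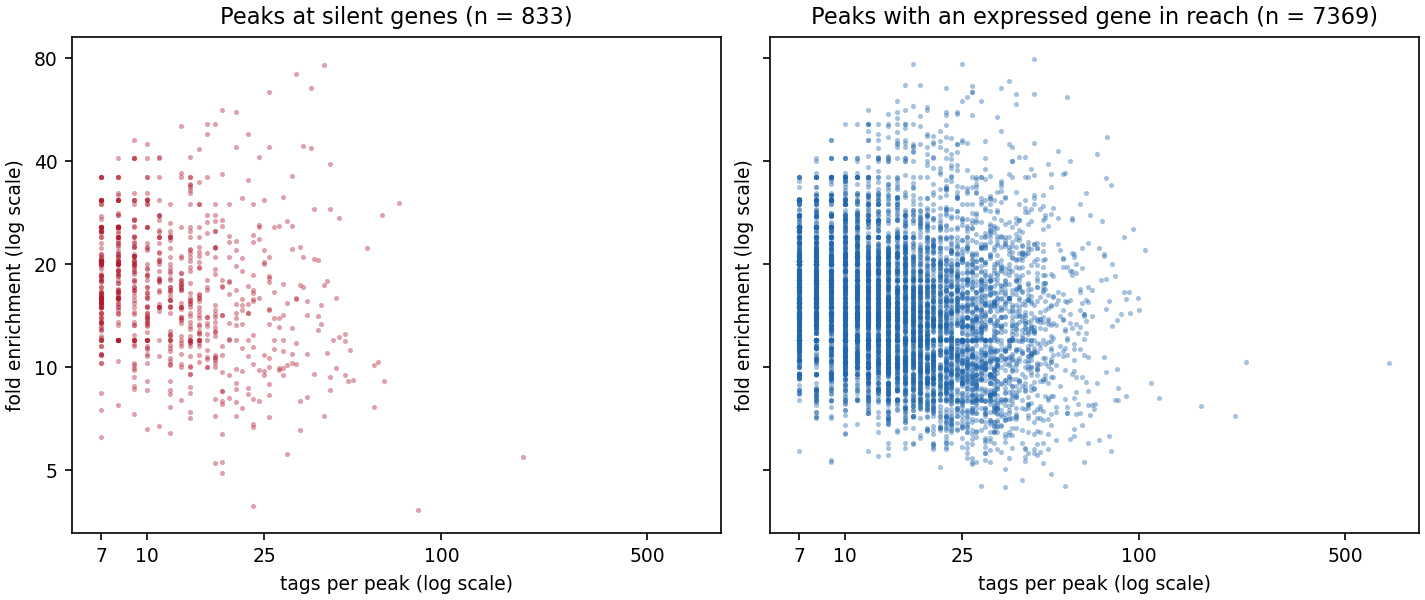
Tags per peak (x axis, log scale) and fold enrichment over the caller's regional background (y axis, log scale), 1 point per MyoD peak, for the 833 peaks at silent genes on the left and the 7369 peaks at expressed genes on the right. The left cloud thins out from 25 tags up, where 103 of its peaks lie, and its largest peak has 190 tags, against 707 on the right.

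The difference in size lay at both ends of the range. Of the peaks at silent genes, 326 (39.1%, exact 95% interval 35.8 to 42.5) had 7 to 9 tags, against 24.9% at expressed genes and 33.5% with no gene in reach. At the upper end 103 (12.4%, 10.2 to 14.8) had 25 tags or more, against 21.6% at expressed genes and 16.7% with no gene in reach. Fold enrichment was lower in peaks with more tags in each class, so it was also compared within ranges of tags. With 7 to 9 tags the median fold was 19.6 at silent genes and 17.1 at expressed genes, and with 10 to 14 tags it was 16.5 at silent genes and 14.99 at expressed genes. With 15 to 24 tags the medians were 14.5 at silent genes and 13.5 at expressed genes, and with 25 or more they were 13.9 at silent genes and 12.5 at expressed genes. The fold was thus higher at silent than at expressed genes in each range of tags. With no gene in reach the medians were 18.5, 15.99, 15.4 and 13.99 in the same order. These were below the medians at silent genes under 15 tags and above them from 15 tags up, with overlapping 95% intervals in each range. Between silent and expressed genes the 95% intervals of the medians were apart below 15 tags and overlapped in the ranges from 15 tags up. Median width was 378 bp at silent genes, 449 bp at expressed genes and 392.5 bp with no gene in reach.

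The caller gave the peaks at silent genes about the same support as the others. Their p score, which is larger for a smaller p-value, had a median of 69.1, against 69.5 at expressed genes and 71.7 with no gene in reach. A false discovery rate of at most 5% was given to 152 of them (18.2%, exact 95% interval 15.7 to 21.0), against 19.3% of all autosomal peaks, so the share is near the background. At expressed genes it was 18.9%. A rate of at most 1% was given to 0 of the 833, with an exact 95% interval of 0 to 0.442%, and to 1 peak at expressed genes. The caller's rate does not follow the p score in order: the Lsamp peak had a p score of 325 and a rate of 8.33%.

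A smaller share of the peaks at silent genes had a neighbouring peak or sat within a gene. Another peak lay within 10 kb for 143 of them (17.2%, exact 95% interval 14.7 to 19.9), against 32.4% at expressed genes and 25.1% with no gene in reach. The summit was inside a locus for 508 (61.0%, 57.6 to 64.3), against 81.1% at expressed genes. It was within 1 kb of a locus end for 104 (12.5%, 10.3 to 14.9), against 17.8% at expressed genes.

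The 8 peaks with the highest fold enrichment had 16 to 40 tags each. The highest, 76.6-fold with 40 tags, lay inside Lsamp, a cell adhesion protein of the limbic system (chr16:42152625-42153308, mm9), which was listed at 0 FPKM in both conditions. Adamts17, a secreted metalloprotease, had a peak of 71.8-fold with 32 tags inside its locus. A peak of 65.7-fold with 36 tags lay 2.69 kb from Mir1969 and near Gm10654. Adcy5, an adenylyl cyclase, had a peak of 64.0-fold with 26 tags, and Gnat3, the alpha subunit of the taste G protein gustducin, had one of 56.4-fold with 18 tags. Inside the shared locus of Lrrc18 and Wdfy4 was a peak of 56.0-fold with 20 tags.

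A pair of potassium channel genes closed this group. Kcnq1, known from heart and inner ear, held a peak of 51.4-fold with 16 tags, and Kcnma1, the large-conductance calcium-activated channel, one of 51.3-fold with 17 tags. Of these 8 peaks, 7 had their summit inside a locus and 7 had no other peak within 10 kb. Distances to the nearest expressed gene were 10.8 kb for the Mir1969 peak and between 54.9 and 363 kb for the rest.

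The 8 peaks with the most tags were a different set, with 0 in common with the ranking by fold. The largest lay 7.64 kb from Mir206 (chr1:20660542-20663783, mm9) and was 3242 bp wide, with 190 tags and a fold of 5.48. Its nearest expressed gene was Mir133b at 11.4 kb, with the FPKM given above and no call in the authors' deposited table (q = 0.719). Npas4, a neuronal activity-dependent transcription factor, had 83 tags at a fold of 3.82, the lowest fold of all 833 peaks. The peak near Cidea, a lipid droplet protein of fat cells, had 72 tags and a fold of 30.1. Tags and fold thus ranked these peaks differently.

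The remaining peaks with many tags lay near noncoding or little-studied genes. A430010J10Rik had a peak of 64 tags, and a copy of the spliceosomal RNA U6 on chromosome 17 had one of 63 tags at a fold of 28.0. Xkr7 had a peak of 61 tags 580 bases inside a locus end. The region of Fam169b and Pgpep1l had 59 tags, and a copy of 7SK on chromosome 12, an RNA that holds back transcription elongation, also had 59. Xkr7, U6 and 7SK were listed at 0 FPKM in both conditions, and copies of U6 and 7SK elsewhere in the genome could share their reads.

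Expressed genes beyond the 10 kb reach were next compared. Their values did not choose the peaks, but the rule's limit of 0.5 FPKM chose which genes count as expressed. The nearest expressed gene was at a median of 50.8 kb (quartiles 23.6 to 124), against 57.5 kb for peaks with no gene in reach. The 833 peaks had 646 distinct nearest genes, of which 600 were tested in the authors' deposited table. Of these, 52 were called higher in myotubes (8.67%, exact 95% interval 6.54 to 11.2) and 121 lower (20.2%, 17.0 to 23.6), against a background of 6.52% higher and 17.3% lower. The lower bound is just above the background share for higher calls and just below it for lower calls. The background covers all tested genes, without the limit of 0.5 FPKM. Beside gene-free peaks the shares were 8.97% higher and 21.2% lower, and at expressed genes 11.8% higher and 17.9% lower.

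Higher calls beside large peaks were counted separately. For peaks at silent genes with 25 tags or more, 12 of 88 tested nearest genes were called higher (13.6%, exact 95% interval 7.25 to 22.6) and 15 lower. The share higher was 12.8% (9.18 to 17.1) beside gene-free peaks of that size and 19.7% (17.5 to 22.1) at expressed genes. The interval of the peaks at silent genes overlaps both, and no test was made. Of the 646 nearest genes, 7 (1.08%) were on a list of 108 muscle genes, against 0.825% of the 1455 beside gene-free peaks and 1.40% of the 4065 at expressed genes.

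Within 50 kb the 410 peaks concerned had 357 distinct nearest genes, of which 2 (0.560%) were on the muscle list. Of the 328 tested in the authors' deposited table, 27 were called higher (8.23%, exact 95% interval 5.49 to 11.8) and 70 lower (21.3%, 17.0 to 26.2). The interval for higher calls includes the background of 6.52%. The genes named next within 50 kb are genes of muscle, picked from the higher calls after their values were seen. They show examples and no tendency. Higher calls passed over include Chi3l1, beside a peak of 43 tags, and Dpm1, beside a peak of 34 tags. Gm7325, named Mymx in RefSeq and known as the fusion protein myomixer, lay 14.2 kb from the U6 peak of 63 tags, with 111 FPKM in myotubes and 11.3 FPKM in myoblasts (q = 1.54e-05). Sln, the calcium pump inhibitor sarcolipin, lay 14.1 kb from a peak of 26 tags at Gm11147, with 54.1 FPKM in myotubes and 2.05 FPKM in myoblasts. Myl4, an essential myosin light chain, lay 16.1 kb from a peak of 25 tags in Itgb3 and had 10550 FPKM in myotubes and 494 FPKM in myoblasts. These are peaks that the 10 kb reach gives to a silent gene.

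Other more examples lay beside smaller peaks. Pdlim3, a Z-disc protein, lay 13.2 kb from a peak of 17 tags at U6atac, with 199 FPKM in myotubes and 32.4 FPKM in myoblasts. Cav3, the muscle caveolin, lay 20.8 kb from a peak of 8 tags near Oxtr, the oxytocin receptor gene, with 561 FPKM in myotubes and 29.9 FPKM in myoblasts. Jph1, which couples T-tubules to the calcium store, lay 47.8 kb from a peak of 15 tags in Gdap1, with 41.0 FPKM in myotubes and 4.36 FPKM in myoblasts. Beyond 50 kb, Cdkn1c, a cell cycle inhibitor, was the nearest expressed gene to 3 of the Kcnq1 peaks, at 56.7, 120 and 129 kb, with 33.6 FPKM in myotubes and 3.08 FPKM in myoblasts (q = 2.37e-09, authors' deposited table). Which gene a peak acts on was not measured.

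Lower calls lay beside these peaks too. Arhgap22 was the nearest expressed gene to the Wdfy4 peak, at 125 kb, with 82.2 FPKM in myotubes and 364 FPKM in myoblasts (q = 4.63e-05, authors' deposited table).

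Silent sequence held few MyoD peaks for its length. The reach of silent genes covered 435.5 Mb with 833 peaks, or 1.91 per Mb (exact Poisson 95% interval 1.78 to 2.05). That compares with 8.23 per Mb (8.05 to 8.42) in reach of expressed genes and 2.23 (2.15 to 2.32) with no gene in reach. Gaps in the genome and sequence that short tags cannot map to were not removed from the lengths.

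**Figure D2:**
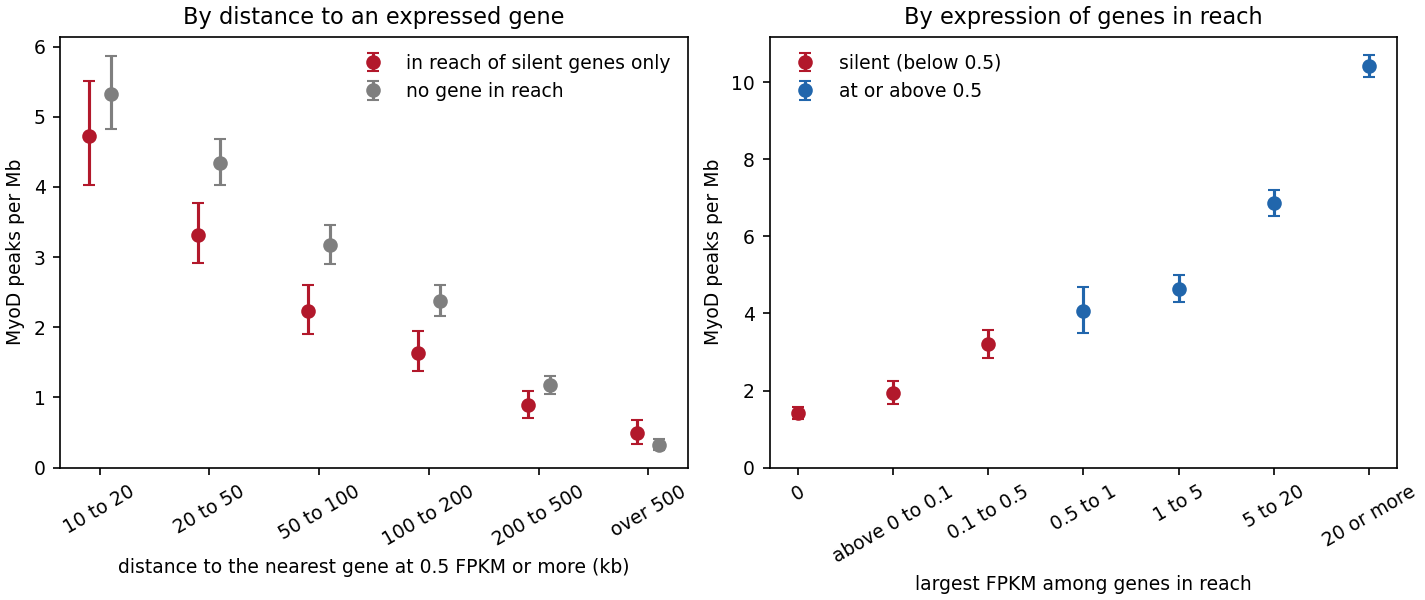
MyoD peaks per Mb (y axes) by distance from the nearest gene at 0.5 FPKM or more in kb (left, red for sequence in reach of silent genes only, grey for sequence with no gene in reach) and by the largest FPKM among genes in reach (right, red below 0.5 and blue at or above), with exact Poisson 95% intervals. In reach of silent genes the density goes down from 4.73 per Mb at 10 to 20 kb to 0.489 beyond 500 kb, and across FPKM it goes up from 1.40 to 10.4.

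Within silent sequence the density differed with the distance to an expressed gene. At 10 to 20 kb from one it was 4.73 per Mb (4.03 to 5.51), at 20 to 50 kb 3.32, at 50 to 100 kb 2.24 and at 100 to 200 kb 1.64. At 200 to 500 kb it was 0.886, and beyond 500 kb, with 35 peaks, 0.489 (0.341 to 0.681). The same order of bins held in sequence with no gene in reach, at 5.33, 4.35, 3.17, 2.37, 1.17 and 0.324 per Mb. The silent reach had fewer peaks per Mb than gene-free sequence in each bin up to 500 kb and more beyond. Intervals of the pair overlapped at 10 to 20 kb, at 200 to 500 kb and beyond 500 kb.

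The size of peaks at silent genes followed the same order. The median was 13 tags at 10 to 20 kb from an expressed gene, 12 at 20 to 50 kb, 11 at 50 to 100 and at 100 to 200 kb, and 9 in both bins beyond. Peaks of 25 tags or more were 22.6% of those at 10 to 20 kb (37 of 164, exact 95% interval 16.4 to 29.7). They were 5.26% of those at 100 to 200 kb (7 of 133, 2.14 to 10.5). Fold enrichment went the other way, from a median of 16.1 in the nearest bin to 21.9 beyond 500 kb. The most remote peak, of 7 tags in the locus of Csmd3, lay 2064 kb from the nearest expressed gene.

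Density was also higher where genes had the small amounts of RNA that the rule allowed. Where every gene in reach was at 0 it was 1.40 per Mb (1.26 to 1.56). With a largest FPKM up to 0.1 it was 1.94 (1.66 to 2.25), and from 0.1 to 0.5 it was 3.20 (2.85 to 3.57). The next bin outside the rule, 0.5 to 1, had 4.05 per Mb, and 20 or more had 10.4. By locus length the silent reach had 1.88 per Mb where the longest locus was under 10 kb, 2.70 at 10 to 50 kb, 2.20 at 50 to 200 kb and 1.17 above 200 kb. These are descriptions of bins that the rule's own values define.

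Most silent loci in reach of these peaks held 1 peak at silent genes. Of the 715 loci, 588 had 1 such peak, 88 had 2, 29 had 3, 4 had 4, 5 had 5 and 1 had 8. The locus with 8 was that of Slc24a4, a sodium, calcium and potassium exchanger of tooth enamel and olfactory neurons, whose peaks lay between 18.2 and 131.1 kb from the lower end of a locus of 139 kb, and which had 0.339 FPKM in myotubes and 0.134 FPKM in myoblasts. In order along the locus they had 10, 7, 13, 47, 23, 10, 8 and 20 tags, with folds of 11.99 to 44.0. The first 3 and the last 3 of them formed 2 of the 6 runs of 3 peaks with gaps of at most 10 kb. Those of 47 and 23 tags were in neither run.

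**Figure D3:**
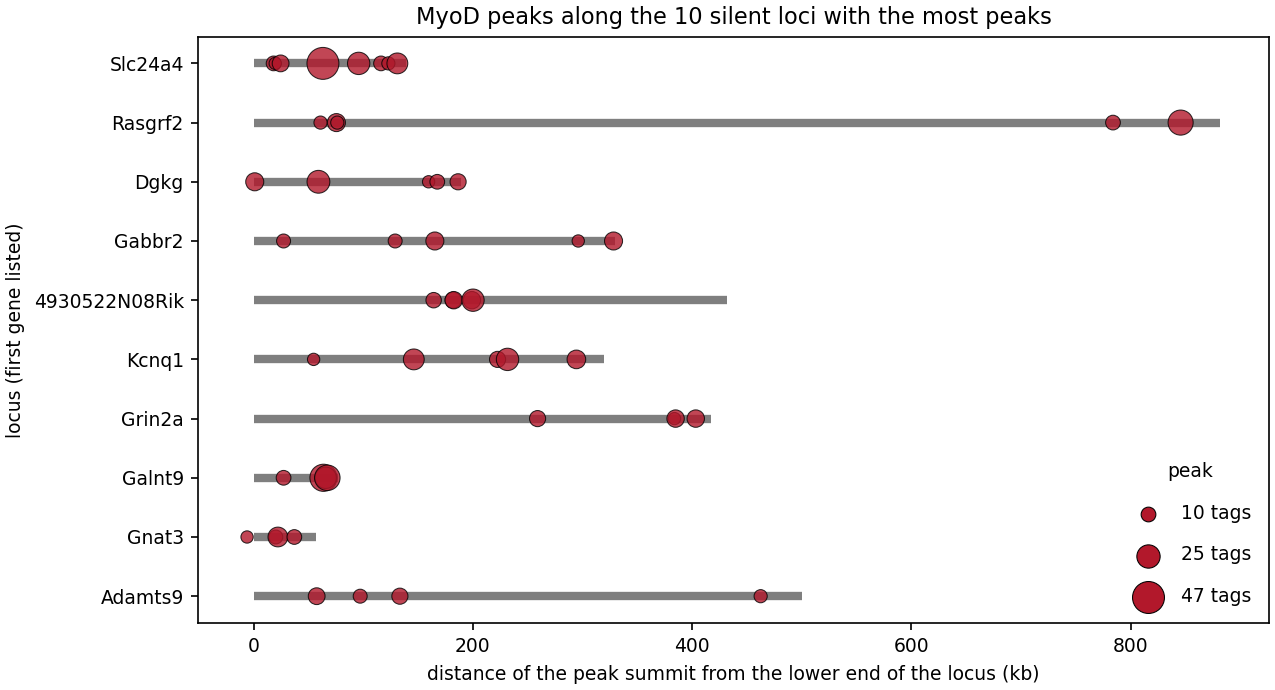
Positions of MyoD peaks (red circles, area proportional to tags) along the 10 silent loci with the most peaks (grey bars), in kb from the lower end of each locus. Slc24a4 holds 8 peaks of 7 to 47 tags, and in Galnt9 3 peaks of 21 to 34 tags lie together.

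The other loci with the most peaks had 5 or 4 each and were between 57.2 and 882 kb long. Rasgrf2, a Ras exchange factor, Dgkg, a diacylglycerol kinase, Gabbr2, a GABA receptor subunit, Kcnq1 and the region of 4930522N08Rik had 5 peaks each. Those of Rasgrf2 lay at both ends of its 882 kb, with 3 peaks within 76.3 kb of the lower end. Grin2a, an NMDA receptor subunit, had 4 peaks of 7 to 14 tags. Galnt9, which adds sugars to proteins, had 4, and 3 of these, of 34, 21 and 30 tags, lay within 3.49 kb. Gnat3 and Adamts9 also had 4 each.

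Loci with 3 peaks or more were also ranked by peaks per Mb of reach, where the division by length favours short loci. A 7SK copy on chromosome 12 had 3 peaks in reach of its 303 bases, of 59, 28 and 18 tags, on both sides and outside of it. Foxn4, a factor of retina and spinal cord development, had 3 peaks of 8, 19 and 45 tags inside its 19.6 kb. Gm9989 had 3 of 7 to 14 tags, Ccbp2, a decoy receptor for chemokines, 3 of 8 to 22 tags, and Fndc7 3 of 14 to 20 tags. A further run lay at Slc44a3, a choline transporter family member, with 39, 44 and 14 tags in 9.13 kb.

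Gene families differed in how often a peak at silent genes lay beside their silent members. Here and in the lists below only peaks at silent genes are counted, whatever their false discovery rate. A peak that also has an expressed gene in reach is left out. A silent gene counted as without a peak can therefore still have a MyoD peak in reach. Olfactory receptors, the largest family here, had 10 of 1233 silent genes in reach of a peak, with 8 peaks in 19.6 Mb or 0.409 per Mb (exact Poisson 95% interval 0.176 to 0.805). Vomeronasal receptors had 2 of 329, at 0.291 per Mb (0.0600 to 0.850). Both families were below all silent sequence in the share of genes in reach (0.811% and 0.608%, against 5.27%) and in density (1.91 per Mb). Adhesion proteins of neurons had 2 of 27 in reach, or 7.41%, above 5.27%, while their density of 0.201 per Mb (0.0244 to 0.727) was below 1.91. Their 9.93 Mb of reach is long for 27 genes. The families were chosen with earlier results known, and no test was made.

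**Figure D4:**
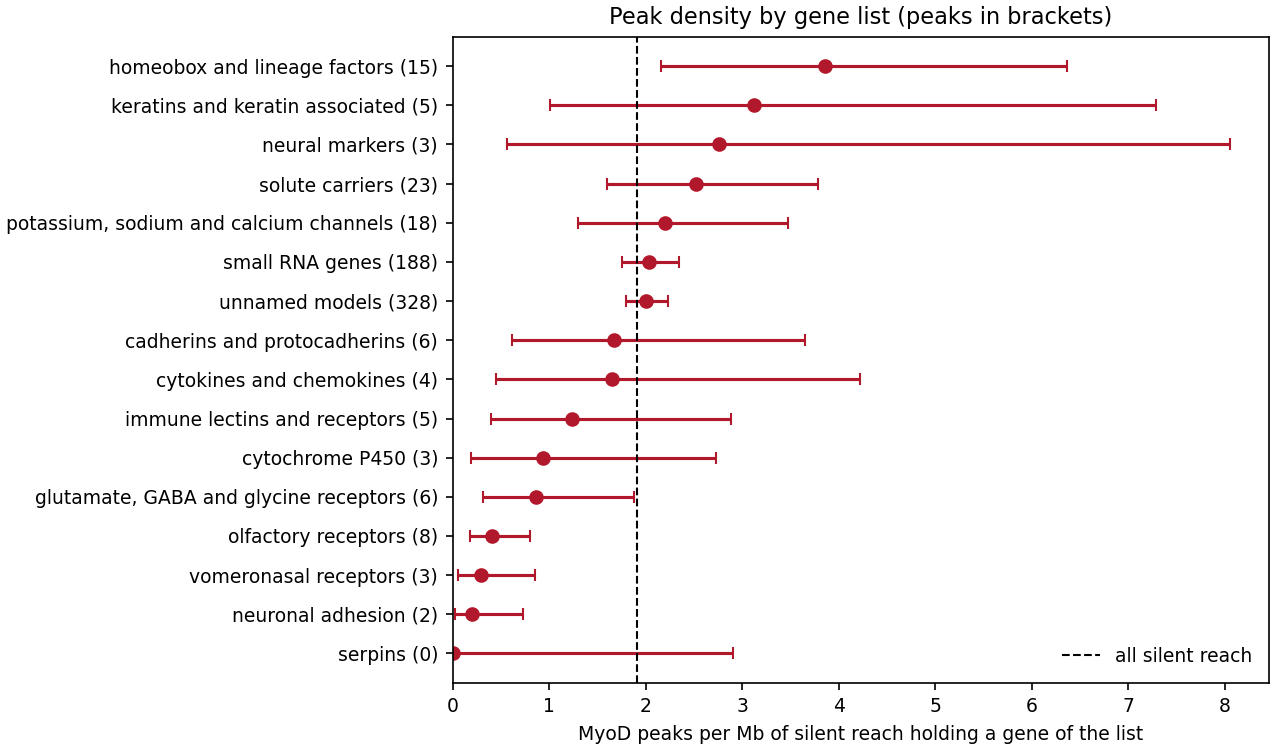
MyoD peaks per Mb (x axis) of silent reach that holds a gene of each list (rows, number of peaks in brackets), with exact Poisson 95% intervals, for lists with at least 1 Mb of such reach. The dashed line is all silent reach at 1.91 per Mb: olfactory, vomeronasal and glutamate, GABA and glycine receptors and neuronal adhesion genes have intervals below it, and homeobox and lineage factors, at 3.86, an interval above it.

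Developmental transcription factors had the most peaks per Mb among the families with at least 1 Mb. Homeobox and lineage factors had 13 of 119 silent genes in reach (10.9%), with 15 peaks or 3.86 per Mb (2.16 to 6.37). The largest of Foxn4 was 27.4-fold with 45 tags. Pax5, the B cell factor, had a peak of 17 tags and 22.3-fold and another of 16 tags, with 0 FPKM in myotubes and 0.329 FPKM in myoblasts. Foxb1 had 7 tags at 20.5-fold.

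Potassium, sodium and calcium channels had 15 of 83 silent genes in reach (18.1%), with 18 peaks or 2.20 per Mb (1.303 to 3.48). Besides Kcnq1 and Kcnma1, Cacna2d2, a calcium channel subunit, had a peak of 25 tags and 30.8-fold. Cacna1i had 24 tags at 26.0-fold. Solute carriers had 11 of 161 silent genes in reach (6.83%) and 23 peaks, or 2.52 per Mb (1.6001 to 3.79), and 8 of those peaks were in Slc24a4. Glutamate, GABA and glycine receptors had 3 of 29 (10.3%, above 5.27%), at a density of 0.862 per Mb (0.316 to 1.88, below 1.91), with Grik2 the highest at 30.8-fold.

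The remaining families had at most 6 peaks each. Keratins and their partners had 4 of 98 silent genes in reach (4.08%) with 5 peaks or 3.12 per Mb (1.01 to 7.29), led by Krtap4-7 with 16 tags at 28.0-fold. Immune lectins and receptors had 4 of 136 (2.94%) at 1.23 per Mb (0.401 to 2.88), among them Cd86, a costimulator of T cells, with peaks of 17 and 9 tags. Cytokines and chemokines had 4 of 93 (4.30%) at 1.65 per Mb (0.449 to 4.22), namely Il6, Il3, Ccl22 and Cxcl17. Cadherins and protocadherins had 6 of 33 (18.2%) at 1.68 per Mb (0.615 to 3.65), led by Cdh4 with 7 tags at 35.9-fold. Cytochrome P450 genes had 3 of 89 (3.37%) at 0.935 per Mb (0.193 to 2.73), where Cyp11a1, the first enzyme of steroid synthesis, had 47 tags at 11.9-fold, and serpins had 0 of 47. Defensins had 1 of 48, at 1.16 per Mb, and taste and trace amine receptors 1 of 53, at 1.31 per Mb. The intervals of these families' densities all include 1.91 per Mb.

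Genes known by number or clone were counted too. Unnamed models had 316 of 6306 silent genes in reach with 328 peaks, or 2.00 per Mb (1.79 to 2.23). Small RNA genes had 153 of 3493 with 188 peaks, or 2.04 per Mb (1.76 to 2.35). Both lie close to all silent reach.

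Muscle genes were rarely silent: 9 of 108 were below 0.5 FPKM in both conditions, and 3 of these had a peak at silent genes in reach. Fgf6 had 2, of 9 and 8 tags, with 0 FPKM in myotubes and 0.355 FPKM in myoblasts. Dupd1, a dual specificity phosphatase of muscle, had 1 of 17 tags at 22.5-fold, with 0.444 FPKM in myotubes and 0 FPKM in myoblasts. Lrrc38, a channel accessory subunit, had 1 of 11 tags, with 0.0932 FPKM in myotubes and 0 FPKM in myoblasts. Myl3, Mybpc3, Myh15, Barx2, Asb18 and Mybphl had 0 such peaks, but peaks with an expressed gene also in reach were not counted. The 4 peaks gave 8.18 per Mb (2.23 to 20.9) over 0.489 Mb, against 1.91 per Mb in all silent reach. The share in reach, 33.3% against 5.27% of all silent genes, rests on 9 genes. The list was chosen with earlier results known, and no test was made.

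Markers of other cell types were silent in part. Of 5 endothelial markers 3 were silent, and each of these had a peak in reach, Kdr with 8 tags, Tek with 15 and Cdh5 with 14, or 10.6 per Mb (2.18 to 30.8). The caller's false discovery rates of these peaks were 17.2%, 6.19% and 23.4%. Of 6 silent neural markers Rbfox3 had 1 peak and Syt1 had 2, or 2.75 per Mb (0.568 to 8.05). With 3 and 6 genes these shares rest on few genes, against 5.27% of all silent genes in reach. Markers of liver, with 10 silent genes, germ cells with 9, immune cells with 9 and fat cells with 4 had 0 peaks at silent genes. The same held for 2 markers of fibroblasts and 2 of bone and cartilage. Peaks with an expressed gene also in reach were not counted, so a MyoD peak beside these markers is not excluded. The reach of each of these 6 lists is at most 0.371 Mb, and the upper bounds of their densities are above 1.91 per Mb.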

How the data were processed

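FPKM values, 1 per gene and condition, are those of the authors' Cuffdiff table as deposited, and their p-values and q-values come from the authors' test. Cuffdiff, CASAVA 1.7.0, MACS 1.3.7 and mm9 are named in the submitters' processing notes; the aligner and how duplicates were handled are not given in the sources used. Per the file headers, peaks were called by MACS with a tag size of 36, a model fold of 16 and a p-value threshold of 1.00e-05, on 1 ChIP and 1 control file. Per the file headers, tags are counts, fold enrichment is a ratio, the p score is a score that is larger for a smaller p-value, and the false discovery rate is a percent.

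The summit is the start plus the offset minus 1. Genes were joined by the loci of the table within 10 kb. Lengths for the main density and the gene lists were summed to the base. Where a grid was used for other densities, its step was 100 bp. Intervals are exact 95% intervals (Clopper-Pearson for shares, Poisson for densities, order statistics for medians) and cover counting error only. With 1 library per group no test was made. Peaks named are the 8 with the highest fold, the 8 with the most tags, the largest runs and loci, and up to 4 genes per list. Examples of nearest expressed genes were not chosen by these rankings. The members and lists were chosen with earlier results of these data known. The join and the intervals were tested on simulated data. Python 3.11, pandas 2.3.3, numpy 2.4.6, scipy 1.17.1 and matplotlib 3.10.9 were used. Alternatives covered the reach, the FPKM limit, gene status, small RNA genes, the false discovery rate and the peak position.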

Additional observations from a re-analysis of the deposited data

How the results depend on the processing

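The 8 main values were recomputed under 10 alternatives, of which 1, leaving out chromosome 14, was chosen after seeing the data. Of the recomputed values 57 stayed within the interval of the reported value, or within 1.5 times for the number of peaks, and 23 did not. A reach of 5 kb gave a share of autosomal peaks of 7.23% and 71.4% of summits inside a locus, and a reach of 50 kb gave 7.07%, 38.6% and 1.40 peaks per Mb. A limit of 0.1 FPKM left 521 peaks (4.91%, 52.2% inside a locus, 1.54 per Mb), and genes at 0 alone left 352 (3.31%, 41.2% inside, 1.40 per Mb). A limit of 1 FPKM gave 9.59% and 2.12 per Mb. Without small RNA genes the share was 7.22% with 66.1% inside a locus. Peaks with a false discovery rate of at most 10% numbered 338, with a median of 15 tags and a fold of 21.0, 45.0% at a rate of at most 5%, 12.4% with another peak within 10 kb and 0.776 per Mb. A stricter limit or rate keeps fewer peaks by construction. Leaving out peaks that had a gene with a failed test or too little data in reach left 825 peaks. That change, taking the middle of the peak, and leaving out chromosome 14 moved 0 of the 8. No paired analysis was possible because each group has 1 sample. The depth of 1 ChIP library limits small peaks, 7 tags being the fewest listed.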

Other observations

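Chromosome 14 held 168 peaks, or 1.38 per Mb of its span, against 3.46 to 6.38 per Mb on the other autosomes. Of those 168 peaks, 18 (10.7%) were at silent genes. On chromosome X, outside the rule, 13 of 136 peaks (9.56%) met the same FPKM limit, with a median of 15 tags, 76 had an expressed gene in reach with a median of 12, and 47 had no gene in reach with a median of 10.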
